A study of Homo sapiens with 18 samples.

Results

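Oncostatin M signals through a receptor made of OSMR and the shared subunit IL6ST (gp130), and the same subunit pairs with LIFR for leukaemia inhibitory factor, while OSMR pairs with IL31RA for interleukin-31. The receptors hold the kinases JAK1 and JAK2, which phosphorylate STAT3. STAT3 then enters the nucleus and binds palindromic DNA sites, and among its best known targets are SOCS3, which feeds back to block the receptor, and PIM1, a serine/threonine kinase that favours survival. In the intestine, stromal cells are a main target of oncostatin M, and the receptor is known for its part in inflammatory bowel disease. The chromatin accessibility of these 9 genes was described here. Their regions were the peaks of an ATAC-seq count table that overlapped the gene body or the 10 kb upstream of it in the GENCODE annotation of hg38, which gave 154 of 334857 peaks. The rule takes regions by position and uses no measured value.

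The cells were Ccd18-Co, a line of fibroblasts from human colon, so that all libraries share 1 donor background. There were 18 libraries in 3 groups of 6. Unstimulated cells received neither cytokines nor drug according to the labels, which name no vehicle for them. All 3 groups were seeded at 25000 cells. The DMSO group received 3 pulses of TNF, OSM and IL-17A at 10 ng/ml each with IL-1β at 0.1 ng/ml. Each pulse lasted 72 h and was followed by 96 h of recovery, and after 1 week of rest the cells were kept for 5 days with DMSO. The belinostat group had the same cytokine history and then 5 days with 250 nM belinostat, an inhibitor of histone deacetylases, in place of the vehicle alone. For both of these groups the labels give a vehicle dilution of 1 to 5000. Both were collected 2 weeks after that treatment, so OSM had been absent for weeks when the chromatin was taken. The labels number the libraries 1 to 6 in each group and do not say whether they were separate cultures, so the p-values below measure the spread between these libraries.

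Peak counts per library summed to 4661678 to 11352032. The belinostat libraries were the shallowest, with 4661678 to 6370845 counts. Of these counts, the 154 peaks took 0.0855% ± 0.0031 (SD, n = 6) in unstimulated cells, 0.0811% ± 0.00202 with DMSO and 0.0781% ± 0.00401 after belinostat. The share of all counts in the 10000 strongest peaks moved in the same order, with 36.8% ± 1.26, 33.1% ± 1.28 and 30.9% ± 2.23. All 10 fibroblast markers had a peak at their start. Their sum was 246, 219 and 204 CPM (counts scaled to the library total, with TMM factors) in the 3 groups. Markers of the other cell types, 5 genes each, had lower sums. These were 39.3, 36.7 and 38.2 CPM for 5 of 5 smooth muscle genes and 5.17, 7.02 and 8.77 CPM for 4 of 5 epithelial genes. For 3 of 5 endothelial genes they were 0.957, 1.88 and 2.76 CPM, and for 2 of 5 immune genes 12.2, 13.3 and 16.0 CPM. Nearly all of the immune sum came from CD14. The median percentile of strength among all peaks was 96.8 for fibroblast, 88.3 for smooth muscle and 33.4 to 57.9 for the other markers. Single genes overlapped: in unstimulated cells ACTG2 of smooth muscle had 23.7 CPM, against 23.3 for THY1 and 2.45 for DCN. PTPRC, CD79A, LYZ, CDH5, ERG and KRT20 had no peak at their start. The part of the rise of the epithelial, endothelial and immune sums in the results below was not tested.

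The STAT family binds the word TTCNNNGAA and AP-1, the factor family that carries many cytokine responses, binds TGANTCA (N, any base, with both words the same on either strand). Short stretches around STAT words are shown first for the peaks at the start sites of SOCS3, PIM1 and STAT3, and for a distal start of LIFR, because these are the places where the pathway's own factor could read the pathway's own genes. All are written 5′ to 3′ on the plus strand of hg38, with the word in capitals. Not every STAT word of these peaks is shown.
SOCS3, chr17:78360408-78360436: cccccctcccTTCTAAGAAggctgatttc
SOCS3, chr17:78359590-78359618: agccggagtaTTCCGGGAAcctgggatct
PIM1, chr6:37169215-37169243: cacacatcccTTCCCAGAAatcaggattc
STAT3, chr17:42388043-42388071: cgcgttctgtTTCTCCGAAgaacgaaact
LIFR, chr5:38595552-38595580: tggattgtggTTCAAGGAActagtaatgg
The words of STAT3 and LIFR lie at 385 and -38920 from the canonical starts of those genes.

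Longer stretches are given for 5 peaks that carry the differences described further on. Each is the central 300 bases of its peak, on the plus strand of hg38, with STAT and AP-1 words in capitals. The peaks of JAK1, SOCS3 and STAT3 were among the strongest falls after cytokines, the IL31RA peak is the strongest of its locus, and the JAK2 peak, which holds neither word in this window, was chosen after its values were seen, as the peak that differed between belinostat and DMSO.
JAK1 intron 1, chr1:64917462-64917761: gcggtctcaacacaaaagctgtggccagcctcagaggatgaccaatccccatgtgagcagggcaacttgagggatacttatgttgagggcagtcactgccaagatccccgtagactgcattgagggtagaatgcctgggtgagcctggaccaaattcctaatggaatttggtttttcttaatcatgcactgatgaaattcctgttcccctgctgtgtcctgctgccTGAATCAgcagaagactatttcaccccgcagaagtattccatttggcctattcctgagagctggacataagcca
SOCS3 upstream, chr17:78366154-78366453: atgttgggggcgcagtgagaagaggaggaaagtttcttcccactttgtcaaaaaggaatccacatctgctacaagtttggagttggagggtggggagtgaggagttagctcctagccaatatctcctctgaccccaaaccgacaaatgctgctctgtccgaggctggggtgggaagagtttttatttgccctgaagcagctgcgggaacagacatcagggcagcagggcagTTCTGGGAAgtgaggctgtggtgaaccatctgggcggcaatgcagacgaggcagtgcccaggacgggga
STAT3 intron 15, chr17:42325093-42325392: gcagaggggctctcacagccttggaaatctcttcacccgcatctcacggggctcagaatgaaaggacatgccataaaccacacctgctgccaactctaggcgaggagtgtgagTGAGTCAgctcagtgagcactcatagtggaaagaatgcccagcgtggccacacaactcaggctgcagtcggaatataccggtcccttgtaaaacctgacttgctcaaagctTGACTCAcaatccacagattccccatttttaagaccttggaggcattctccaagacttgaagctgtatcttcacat
IL31RA exon 3, chr5:55868915-55869214: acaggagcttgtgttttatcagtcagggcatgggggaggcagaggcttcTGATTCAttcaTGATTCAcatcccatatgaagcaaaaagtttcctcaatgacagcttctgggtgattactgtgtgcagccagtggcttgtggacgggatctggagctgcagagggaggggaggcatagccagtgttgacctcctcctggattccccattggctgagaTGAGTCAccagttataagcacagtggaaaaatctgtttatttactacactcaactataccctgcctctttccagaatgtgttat
JAK2 upstream, chr9:4979296-4979595: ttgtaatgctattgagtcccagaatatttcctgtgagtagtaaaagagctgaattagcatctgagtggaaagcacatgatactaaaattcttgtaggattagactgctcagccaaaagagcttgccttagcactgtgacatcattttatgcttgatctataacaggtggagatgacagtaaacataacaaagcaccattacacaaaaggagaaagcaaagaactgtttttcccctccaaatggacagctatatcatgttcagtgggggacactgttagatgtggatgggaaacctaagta
In the central 300 bases, 21 of the 154 peaks held a STAT word (13.6%, against 8.70% of all 334857 peaks) and 34 held an AP-1 word (22.1% against 17.8%). The CEBP word TTGCNNAA was in 28 (18.2% against 14.1%), and the TEAD word GGAATG in 38 (24.7% against 21.3%). A word is a match of letters and no evidence of binding.

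Accessibility of the 9 loci was first read as a level, in CPM summed over the peaks of a locus per kb of peak. In unstimulated cells PIM1 (34.9 ± 2.46 CPM per kb, SD, n = 6) and SOCS3 (32.1 ± 3.01) were the most open. Then came JAK2 (16.7 ± 1.46), STAT3 (16.4 ± 1.48), OSMR (14.3 ± 1.18) and IL6ST (13.9 ± 1.45), followed by JAK1 (11.3 ± 0.923), LIFR (9.95 ± 0.753) and IL31RA (8.78 ± 0.693). Neighbours in this order had overlapping ranges except SOCS3 and JAK2, at 29.2 to 37.6 and 14.9 to 18.8 CPM per kb. OSMR had 20 of its 22 peaks in introns, including the other strong peak described below, whereas the compact target genes SOCS3 and PIM1 had 0. Of the 154 peaks, 110 were intronic, 19 exonic, 16 at an annotated start and 9 upstream, and JAK1 held 48 of them, OSMR 22, STAT3 21, LIFR 17, IL31RA 14, JAK2 13, IL6ST 10, PIM1 5 and SOCS3 4. The strongest peak held 78.5% of the locus counts in JAK2, 74.2% in IL6ST, 73.4% in PIM1, 58.2% in SOCS3, 55.1% in STAT3, 52.2% in IL31RA, 46.2% in LIFR, 37.4% in OSMR and 23.5% in JAK1.

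**Figure D1:**
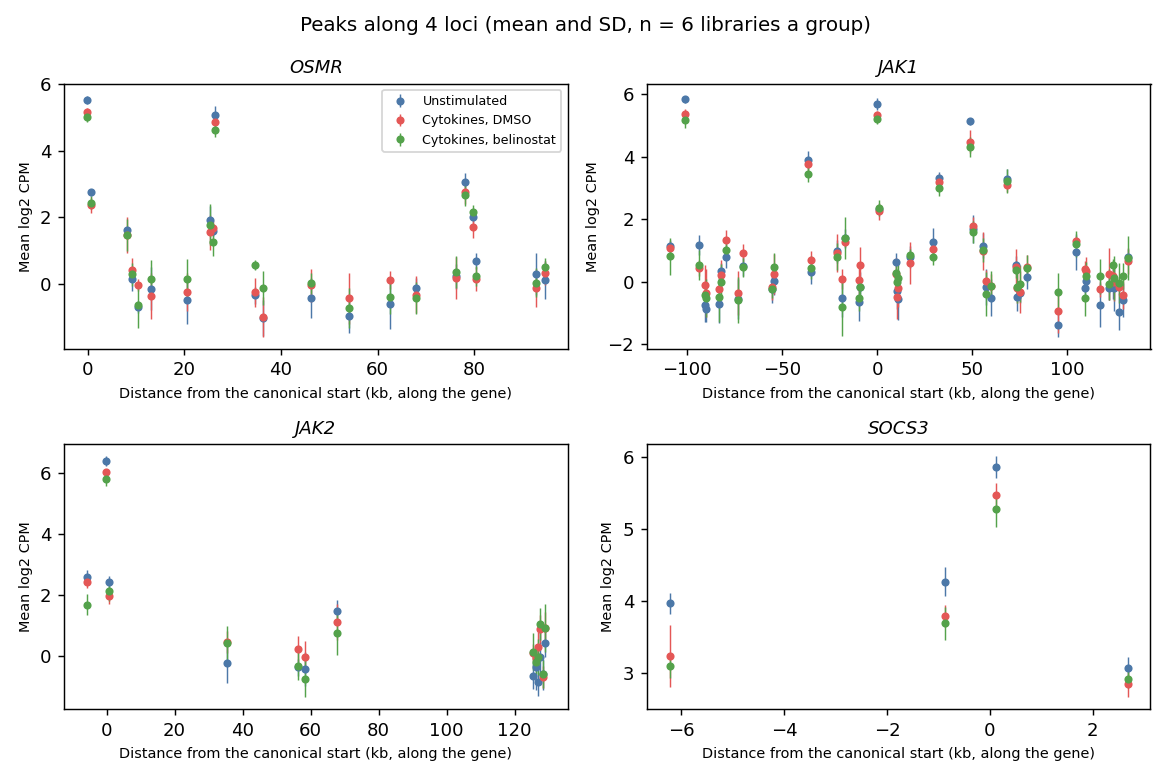
Mean log2 CPM (vertical, ± SD, n = 6 libraries a group) of each peak by its distance in kb from the canonical start for OSMR, JAK1, JAK2 and SOCS3. In JAK2 the start stands alone above 6 in unstimulated cells, whereas JAK1 has strong peaks at both of its starts and inside its first intron, and the belinostat libraries stand below both other groups at the JAK2 peak upstream of the start.

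Whether the cytokine history left a trace in these genes was asked by comparing DMSO with unstimulated libraries. Of these 2 groups, the labels give a vehicle, a rest and a collection time for the DMSO group only. Cytokines, vehicle and schedule therefore cannot be told apart, and "after cytokines" is used here as the name of this comparison. Single peaks that passed an adjusted p of 0.05 (edgeR quasi-likelihood test, Benjamini-Hochberg over all peaks) are called opened or closed. Of the 154 peaks, 20 closed, where 9.73% of all peaks did, and 5 opened, where 9.51% did. The median log2 fold change of the 154 was -0.048 against 0.13 over all peaks. The closed peaks were mostly strong ones, which also hold more counts for a call, and these 2 sides were not separated. At the starts 11 of 16 peaks closed, and in introns 2 of 110. Over all peaks the fold change also ran with strength, from a median of 0.79 in the weakest twentieth to -0.37 in the strongest, in which 79.3% of all peaks were called. The 13 peaks of these genes in that strongest class had a median of -0.38, and 11 closed. When this trend with strength was taken out with a loess offset for each library, 3 peaks closed and 1 opened, where 1.77% and 2.14% of all peaks did. With library totals in place of TMM scaling 8 closed and 15 opened, where 3.25% and 16.2% of all peaks did. The 5 opened peaks were weak, with average log2 CPM below 1. They numbered 1 without DMSO library 4, 2 without unstimulated library 6, 8 without DMSO library 3, and 3 without any one of unstimulated libraries 1, 3 and 5 or DMSO libraries 1, 5 and 6. In these fits 5.52% to 10.7% of all peaks opened.

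**Figure D2:**
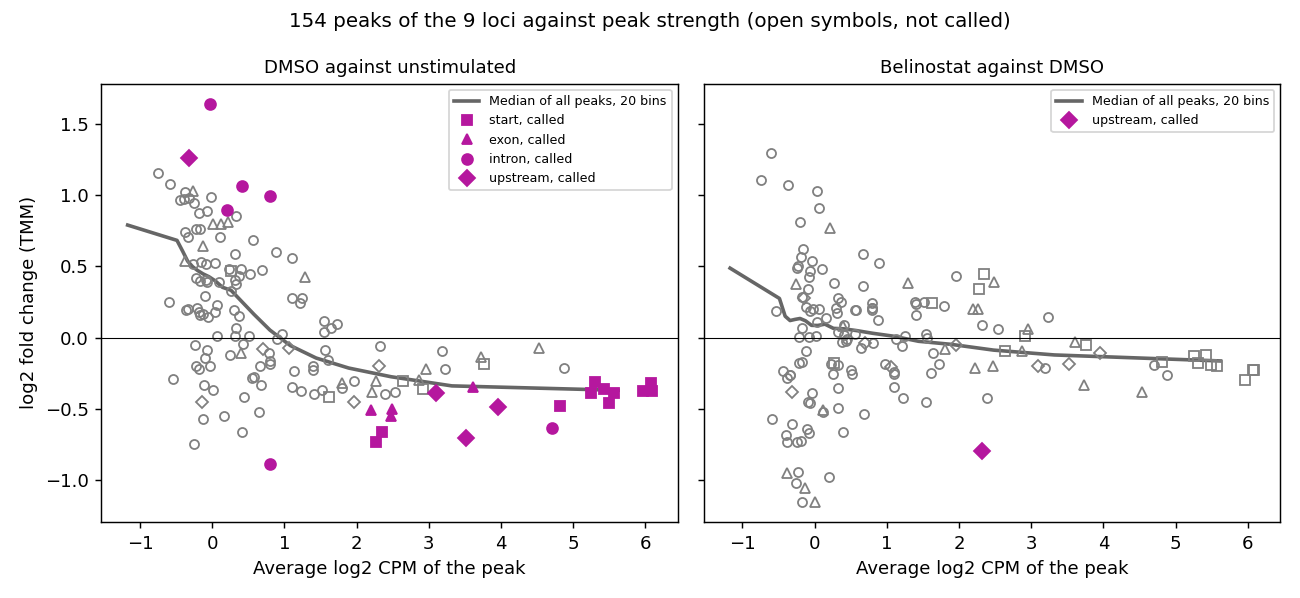
The log2 fold change (vertical) of the 154 peaks against their average log2 CPM (horizontal), for DMSO against unstimulated on the left and belinostat against DMSO on the right. Filled symbols passed the adjusted p of 0.05, open ones did not, and the line is the median of all 334857 peaks in 20 classes of strength. Strong peaks of these genes lie near the line, which falls from 0.79 to -0.37 on the left, and 1 peak is filled on the right.

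Among the receptors, the OSMR promoter peak (chr5:38845163-38846507, first exon, shared with the divergent transcript OSMR-DT) had log2 CPM values of 5.33 to 5.65 in unstimulated libraries (median 5.53), 4.91 to 5.29 in DMSO (median 5.14) and 4.79 to 5.26 in belinostat libraries (median 5.01). Every unstimulated library was above every DMSO library. It closed by a log2 fold change of -0.38 (standard error 0.10, adjusted p = 0.00562), but the value was 0.018 with the loess offset. The other strong OSMR peak, in intron 2 (chr5:38872164-38872648), had a median of 5.07 in unstimulated and 4.89 in DMSO libraries, with overlapping groups and a log2 fold change of -0.21 (standard error 0.11, adjusted p = 0.165). The promoter was the only one of 22 OSMR peaks to be called.

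IL6ST, the subunit common to the whole cytokine family, had its promoter peak at chr5:55994458-55995575, which also covers the divergent IL6ST-DT. Log2 CPM ran from 5.32 to 5.80 (median 5.52) in unstimulated, 4.98 to 5.56 (median 5.22) in DMSO and 4.75 to 5.48 (median 5.00) in belinostat libraries, and the groups overlapped. The log2 fold change was -0.31 (standard error 0.11, adjusted p = 0.0302) and turned to 0.10 with the loess offset. The call was lost without any one of unstimulated libraries 1, 3, 4 and 6 or DMSO libraries 1, 4 and 6, with adjusted p of 0.0540 to 0.123.

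LIFR has an internal canonical start and a distal one. At the canonical promoter (chr5:38556052-38557511, shared with LIFR-AS1) the unstimulated libraries lay at 4.96 to 5.35 (median 5.14), DMSO at 4.57 to 4.81 (median 4.69) and belinostat at 4.06 to 4.80 (median 4.57). Unstimulated and DMSO libraries did not overlap, and the fold change, the largest of the 9 promoters, was -0.48 (standard error 0.11, adjusted p = 0.000935) on the log2 scale and -0.10 with the loess offset (adjusted p = 0.38). The distal start, with the STAT word shown above (chr5:38595267-38595736), was weaker, at 2.24 to 2.94 (median 2.58) in unstimulated, 1.28 to 2.35 (median 2.01) in DMSO and 1.44 to 2.91 (median 2.47) in belinostat libraries. It closed after cytokines by -0.66 (standard error 0.17, adjusted p = 0.00454; loess -0.41, adjusted p = 0.129). Between belinostat and DMSO it differed by 0.45 (standard error 0.18, adjusted p = 0.201), with overlapping groups.

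IL31RA, the partner of OSMR in the interleukin-31 receptor, stood apart from the other loci. Its promoter peak (chr5:55851178-55851682) was the weakest of the 9, with medians of 3.17, 2.80 and 2.73 in unstimulated, DMSO and belinostat libraries, and its log2 fold change after cytokines was -0.36 (standard error 0.15, adjusted p = 0.0652). The strongest peak lies in exon 3, 17707 bases into the gene (chr5:55868800-55869329, with 3 AP-1 words). It had 4.51 to 5.12 (median 4.62) in unstimulated, 4.36 to 4.76 (median 4.66) in DMSO and 3.96 to 4.52 (median 4.18) in belinostat libraries. DMSO and unstimulated libraries covered much the same range, with a log2 fold change of -0.075 (standard error 0.11, adjusted p = 0.67), where all peaks of the strongest class had a median of -0.37. With the loess offset this became 0.31 (adjusted p = 0.00354), the only opened peak of the 154 under that scaling. One weak peak in intron 5 (chr5:55886647-55887107) opened, with medians of -0.14 and 0.49 and a log2 fold change of 1.07 (standard error 0.34, adjusted p = 0.0183). It was no longer called without DMSO library 4 (adjusted p = 0.0787).

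The kinases followed. JAK1 uses 2 strong starts. The distal one (chr1:65066442-65068171), 100757 bases upstream of the canonical start, had medians of 5.82, 5.31 and 5.07 in unstimulated, DMSO and belinostat libraries, and closed after cytokines by -0.46 (standard error 0.10, adjusted p = 0.00103). The canonical promoter (chr1:64965798-64967005) had medians of 5.69, 5.28 and 5.24, and closed by -0.36 (standard error 0.10, adjusted p = 0.00943). With the loess offset these values were -0.06 and 0.050.

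Of the strong JAK1 peaks, the one in intron 1 closed under both scalings. It lies 48937 bases past the canonical start (chr1:64917291-64917933). Its unstimulated libraries lay tightly at 5.01 to 5.34 (median 5.11), the DMSO libraries at 3.91 to 4.83 (median 4.61) and the belinostat libraries at 3.81 to 4.74 (median 4.30), so that no stimulated library reached an unstimulated one. The log2 fold change after cytokines was -0.63 (standard error 0.11, adjusted p = 3.54e-05), and -0.25 with the loess offset (adjusted p = 0.037). The call held in every one of the 25 alternatives run, with adjusted p up to 0.037. A weak peak in an intron of the distal transcript (chr1:65060003-65060487), named after its values were seen, also closed under both scalings, by -0.88 (standard error 0.27, adjusted p = 0.0134) and -0.97 with the loess offset (adjusted p = 0.021). Its medians were 1.29 in unstimulated and 0.39 in DMSO libraries.

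JAK2 had a single strong peak, at its promoter (chr9:4984314-4985654). Log2 CPM was 6.19 to 6.62 (median 6.35) in unstimulated, 5.89 to 6.14 (median 6.01) in DMSO and 5.59 to 6.10 (median 5.73) in belinostat libraries. Unstimulated and DMSO libraries did not overlap, and the peak closed by -0.38 (standard error 0.10, adjusted p = 0.0053; loess 0.056). A pair of neighbouring weak peaks in intron 22, over the processed pseudogene TCF3P1, opened. The first (chr9:5111908-5112260) had medians of -0.94 and 0.30 in unstimulated and DMSO libraries and a log2 fold change of 1.64 (standard error 0.43, adjusted p = 0.00409), and the second (chr9:5112364-5113126) had medians of 0.21 and 1.07 and a log2 fold change of 1.00 (standard error 0.31, adjusted p = 0.0147). With the loess offset 0 JAK2 peaks opened in this comparison. The first peak of the pair had raw counts of 1 to 6 in unstimulated and 4 to 12 in DMSO libraries. Reads from the pseudogene and its parent gene may have been split between the copies.

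STAT3, the factor itself, had its promoter peak at chr17:42388022-42389243. Unstimulated libraries had 6.17 to 6.63 (median 6.33), DMSO 5.90 to 6.15 (median 6.00) and belinostat 5.59 to 6.05 (median 5.73). The first 2 groups did not overlap, and the log2 fold change of -0.32 (standard error 0.10, adjusted p = 0.0193) turned to 0.12 with the loess offset. The adjusted p was 0.0506 without unstimulated library 1 and 0.106 without unstimulated library 6. At 63199 bases past the canonical start, in intron 15 and beside an alternative start, a peak with 2 AP-1 words (chr17:42325085-42325401) had 2.15 to 2.82 (median 2.64) in unstimulated, 1.28 to 2.08 (median 2.00) in DMSO and 1.44 to 2.87 (median 2.04) in belinostat libraries. All DMSO libraries lay below all unstimulated ones, while the belinostat libraries spread over both ranges. This peak closed after cytokines by -0.73 (standard error 0.18, adjusted p = 0.00189; loess -0.50, adjusted p = 0.0659). The neighbouring peak in exon 15 (chr17:42325761-42326164) closed too, by -0.50 (standard error 0.17, adjusted p = 0.0307).

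SOCS3, the feedback inhibitor, had 4 peaks, of which 3 closed. Its promoter peak (chr17:78359229-78360696) had 5.69 to 6.10 (median 5.87) in unstimulated, 5.31 to 5.77 (median 5.43) in DMSO and 5.00 to 5.69 (median 5.24) in belinostat libraries. The log2 fold change after cytokines was -0.38 (standard error 0.10, adjusted p = 0.00576), and 0.031 with the loess offset. The peak 875 bases upstream (chr17:78360816-78361088) had medians of 4.26 and 3.78 in unstimulated and DMSO libraries and closed by -0.48 (standard error 0.12, adjusted p = 0.00254; loess -0.13, adjusted p = 0.394).

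The largest fall of the SOCS3 locus was 6226 bases upstream of the start, inside the divergent transcript SOCS3-DT (chr17:78365738-78366869). Unstimulated libraries had 3.79 to 4.16 (median 4.00), DMSO 2.40 to 3.58 (median 3.37) and belinostat 2.83 to 3.30 (median 3.12), with no stimulated library in the unstimulated range. The log2 fold change was -0.70 (standard error 0.13, adjusted p = 4.72e-05), and -0.37 with the loess offset (adjusted p = 0.0231). DMSO library 1 was far below the rest, and without it the log2 fold change was -0.57 (adjusted p = 0.00168). This peak holds 2 STAT words, 1 of which is in the stretch printed above.

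PIM1, a STAT3 target, had its promoter peak at chr6:37169069-37170472, with 6.09 to 6.48 (median 6.26) in unstimulated, 5.73 to 6.24 (median 5.86) in DMSO and 5.40 to 6.00 (median 5.51) in belinostat libraries. It closed after cytokines by -0.38 (standard error 0.10, adjusted p = 0.00602; loess 0.048), with overlapping groups. A narrow peak in exon 2 (chr6:37170730-37170884) had medians of 2.79 and 2.41 and closed by -0.55 (standard error 0.16, adjusted p = 0.00981). That call was lost without unstimulated library 6 (adjusted p = 0.0509).

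Set side by side, all 9 promoter peaks were lower in DMSO than in unstimulated libraries, 8 passed the test, and their log2 fold changes spanned only -0.48 to -0.31, with a median of -0.38. Of the 9, 8 belong to the strongest class of peaks, in which 79.3% of all peaks were called and the median was -0.37. Unstimulated and DMSO libraries did not overlap at 4 of the 9, and the share of all peaks without overlap was not counted. The direction depends on the scaling: with the loess offset the same 9 spanned -0.10 to 0.12, 2 were below 0 and none passed by edgeR with that offset.

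**Figure D3:**
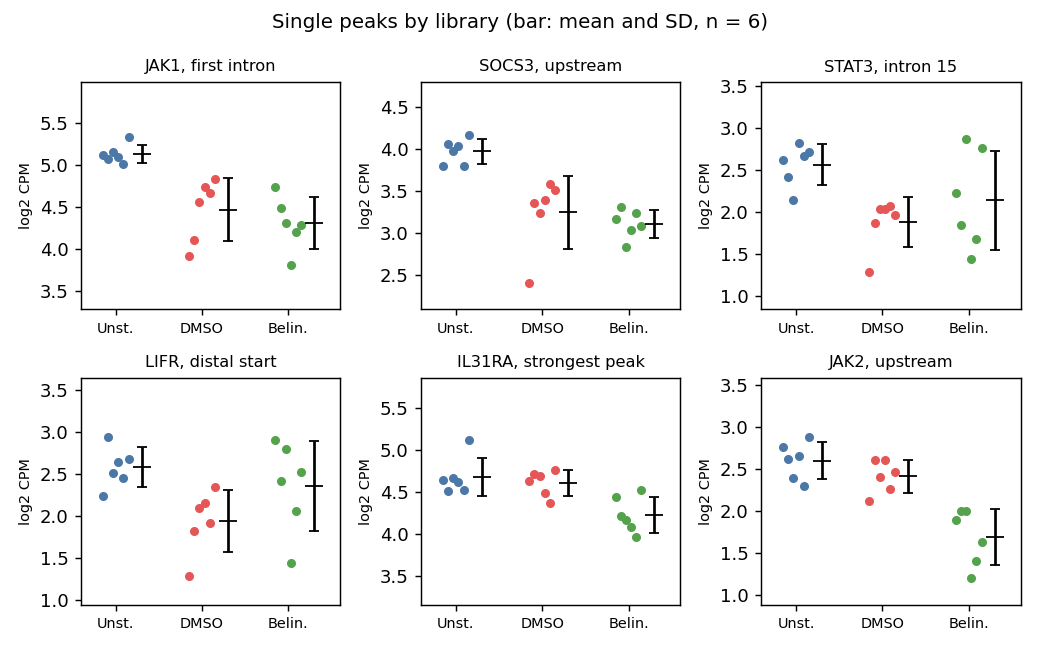
Log2 CPM (vertical) of 6 peaks in each of the 18 libraries, with unstimulated, DMSO and belinostat libraries in columns and the mean ± SD (n = 6) beside them. In the JAK1 and SOCS3 panels every stimulated library lies below every unstimulated one, and in the JAK2 panel the belinostat libraries lie at 1.19 to 2.00, all below the DMSO libraries at 2.11 to 2.61.

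When the peaks of each gene were summed to a locus and tested among 19180 protein-coding loci, 8 of the 9 loci were lower in DMSO than in unstimulated libraries and none was higher. Of all loci 62.5% were lower and 10.9% higher, and the median over all loci was -0.26. SOCS3 fell by most, with summed log2 CPM of 6.52 to 6.89 (median 6.64) in unstimulated, 6.03 to 6.44 (median 6.19) in DMSO and 5.88 to 6.39 (median 6.04) in belinostat libraries. Its log2 fold change was -0.43 (standard error 0.08, adjusted p = 0.000326), with 4.64% of all loci at or below that value. LIFR followed at -0.38, PIM1 at -0.35, STAT3 at -0.31, JAK2 at -0.28, JAK1 at -0.27, OSMR at -0.26 and IL6ST at -0.23, all with standard errors of 0.07 to 0.10. IL31RA did not pass, with 5.42 to 5.72 (median 5.48) in unstimulated and 5.35 to 5.62 (median 5.52) in DMSO libraries and a log2 fold change of -0.013 (standard error 0.07, adjusted p = 0.877).

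After the trend with strength was taken out, 2 of the 9 loci differed, where 8.24% of all loci were lower and 14.2% higher. SOCS3 was still lower (-0.14, adjusted p = 0.019) and IL31RA was higher (0.27, adjusted p = 0.000388). OSMR, IL6ST, JAK1 and JAK2 turned slightly positive at 0.014 to 0.061. SOCS3 passed in each of the 26 alternatives run. The IL6ST locus, by contrast, rested on a narrow margin (adjusted p = 0.0348), and lost its call without any one of 9 libraries, namely unstimulated 1, 3, 4, 5 and 6 and DMSO 1, 2, 4 and 6, with adjusted p of 0.0507 to 0.133.

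**Figure D4:**
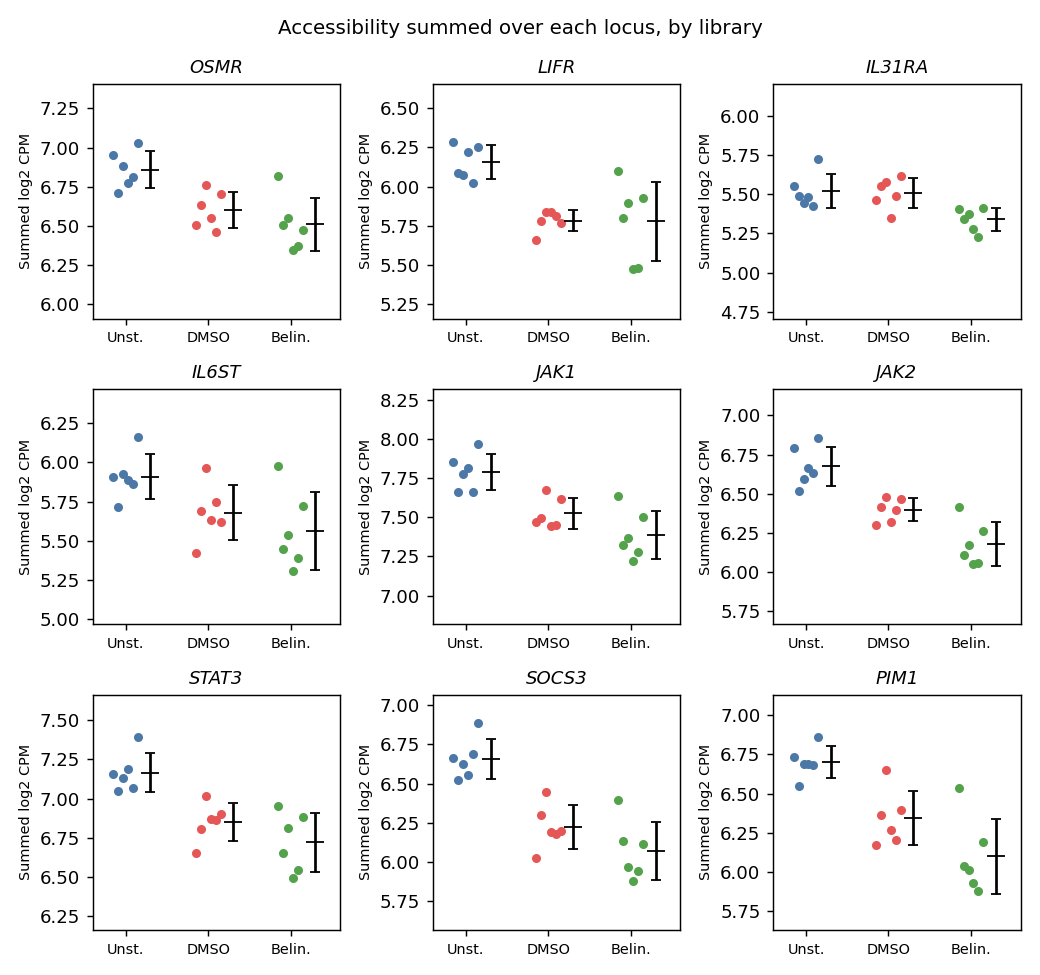
Summed log2 CPM (vertical) over the peaks of each of the 9 loci, 1 point per library, with unstimulated, DMSO and belinostat libraries in columns and the mean ± SD (n = 6) beside them. The unstimulated mean is the highest in each of the 9 panels, by little over DMSO for IL31RA. Unstimulated and DMSO libraries do not overlap for LIFR, JAK2, STAT3 and SOCS3. They overlap for OSMR, IL31RA, IL6ST, JAK1 and PIM1. The share of all loci without overlap was not counted, and 62.5% of all loci were called lower in this comparison.

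Belinostat was compared with DMSO to see whether the drug moved these genes away from the state left by the cytokines. Of the 154 peaks 1 closed and 0 opened by the edgeR test, where 1.75% and 0.607% of all peaks did. At an unadjusted p under 0.05 there were 15 lower and 11 higher peaks, but the share of all peaks at that threshold was not counted. These 2 numbers therefore do not set the 154 peaks apart. The peak that closed lay 5827 bases upstream of JAK2 (chr9:4979198-4979693), the last of the sequences printed above. Unstimulated libraries had 2.29 to 2.88 (median 2.63), DMSO 2.11 to 2.61 (median 2.43) and belinostat 1.19 to 2.00 (median 1.76). The belinostat libraries did not overlap the others, while unstimulated and DMSO libraries covered nearly the same range. The log2 fold change was -0.79 (standard error 0.19, adjusted p = 0.00389), and -0.71 with the loess offset (adjusted p = 0.00802). The call held in all 25 alternatives run, including the one without each library in turn, with adjusted p up to 0.0279. After cytokines the same peak differed by -0.20 (standard error 0.16, adjusted p = 0.374). More peaks passed without single libraries, 4 without belinostat library 1 (where 2.6% of all peaks closed) and 2 without unstimulated library 6, DMSO library 5 or belinostat library 5 or 6. In the fits that gave 2, the share of all peaks that closed was 1.27% to 1.89%.

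The promoters showed no call in this comparison. Their log2 fold changes were -0.30 to 0.01, 8 of 9 below 0, with 3 at an unadjusted p under 0.05. All peaks of the strongest class, to which 8 of the 9 belong, had a median of -0.16, and 9.5% of them were called. PIM1 had the largest (-0.30, standard error 0.11, adjusted p = 0.114), and without belinostat library 1 its adjusted p was 0.00668. With the loess offset the 9 spanned -0.08 to 0.13. The strongest IL31RA peak differed by -0.38 (standard error 0.12, adjusted p = 0.0551), and passed without unstimulated library 6, DMSO library 5 or belinostat library 1 or 6, with adjusted p of 0.0152 to 0.0376.

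At the level of loci none of the 9 passed between belinostat and DMSO, where 2.04% of all loci were lower and 0.125% higher and the median was -0.08. The values ran from 0.0052 for LIFR (standard error 0.09) to -0.24 for PIM1 (standard error 0.09, adjusted p = 0.146) and -0.22 for JAK2 (standard error 0.07, adjusted p = 0.104). OSMR differed by -0.09, IL6ST by -0.11, JAK1 and STAT3 by -0.13, SOCS3 by -0.15 and IL31RA by -0.17. Without belinostat library 1, which had the highest value of its group in each of these loci except IL31RA, 4 loci passed: PIM1 (adjusted p = 0.00453), JAK2 (adjusted p = 0.00849), SOCS3 (adjusted p = 0.0355) and JAK1 (adjusted p = 0.036). In that same fit 22.6% of all loci were lower.

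Belinostat was also set against unstimulated libraries, a comparison that shares its samples with the other two. Here 26 of the 154 peaks closed, where 13.7% of all peaks did, and 14 opened, where 16.8% did. With the loess offset 4 closed and 4 opened, where 4.34% and 4.41% of all peaks did, and with library totals 15 closed and 25 opened, where 6.31% and 30.4% did. The count of opened peaks was 6 without belinostat library 5, 8 without belinostat library 4 or unstimulated library 1, and 9 without unstimulated library 6. In these fits 11.2% to 13% of all peaks opened. The upstream JAK2 peak (-0.99, standard error 0.18, adjusted p = 5.62e-06), the upstream SOCS3 peak (-0.88, standard error 0.14, adjusted p = 6.7e-08) and the JAK1 intron 1 peak (-0.82, standard error 0.12, adjusted p = 8.47e-09) were lower under both scalings. In IL31RA, the last exon held a pair of weak peaks that opened under both. The first (chr5:55917556-55918335) had medians of 0.76 in unstimulated, 1.28 in DMSO and 1.60 after belinostat, with a log2 fold change of 0.81 (standard error 0.23, adjusted p = 0.00514). For the second (chr5:55918464-55918692) they were -0.52, 0.08 and 0.89, with a log2 fold change of 1.58 (standard error 0.37, adjusted p = 0.000421).

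All 9 loci were lower in belinostat than in unstimulated libraries, where 66.8% of all loci were lower, 13% were higher and the median was -0.34. The values ran from -0.18 for IL31RA (standard error 0.07, adjusted p = 0.0221) to -0.59 for PIM1 (standard error 0.09, adjusted p = 3.43e-06), with SOCS3 at -0.58 and JAK2 at -0.50. With the loess offset IL31RA was higher (0.21, adjusted p = 0.002), and PIM1 (-0.17, adjusted p = 0.00349) and SOCS3 (-0.16, adjusted p = 0.00509) were lower. IL31RA lost its call without unstimulated library 6 (adjusted p = 0.0858) or belinostat library 5 (adjusted p = 0.0571).

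The rest of the pathway was read from a list of 52 further genes, all of which had peaks. After cytokines 37 loci were lower and 1 was higher, with a median of -0.27, close to the -0.26 of all loci, of which 62.5% were lower and 10.9% higher. With the loess offset 4 were lower and 6 higher, where 8.24% and 14.2% of all loci were. By role, 4 of 9 ligands, 3 of 5 receptors, 0 of 2 kinases, 4 of 6 STATs, 14 of 16 inhibitors and phosphatases and 12 of 14 targets were lower. The gene that was higher was IL27, which encodes a subunit of the ligand interleukin-27 (0.51, standard error 0.14, adjusted p = 0.00247), and it was higher with the loess offset as well (0.58, adjusted p = 0.00771). Loci lower under both scalings included the inhibitor SOCS6 (-0.43, standard error 0.09) and the targets CEBPB (-0.44, standard error 0.09) and CEBPD (-0.42, standard error 0.09), both C/EBP factors of the acute phase response. Between belinostat and DMSO none of the 52 passed by edgeR with TMM scaling, and with the loess offset JAK3 was higher (0.32, adjusted p = 0.0242) and IL31 (-0.38, adjusted p = 0.0317) and BCL3 (-0.13, adjusted p = 0.037) were lower. Against unstimulated libraries 42 were lower and 1 higher after belinostat, where 66.8% and 13% of all loci were, and 10 and 9 with the loess offset, where 17.9% and 20.7% were.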

How the data were processed

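Accessibility was measured by Omni-ATAC in 18 libraries. Per the study's methods and the labels, the authors ran the ENCODE ATAC-seq pipeline on hg38, called peaks with MACS2, merged them into 1 consensus set over all groups, left out blacklisted regions and counted fragments with csaw. The labels also name ChIPseeker 1.34.1. The deposited table holds these raw counts per peak. It holds no reads outside peaks, so the background bins on which the authors scaled could not be rebuilt, and TMM over peaks was used. For belinostat the dose in the labels is given, since the study's text states another.

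Peaks were placed with GENCODE (hg38, 1-based). A locus is the sum over gene body and 10 kb upstream, for protein-coding genes, and a promoter peak is the strongest within 500 bp of the canonical start. edgeR 4.0.16 (R 4.3.3) fitted 1 quasi-likelihood model over the 3 groups, with Benjamini-Hochberg adjustment over 334857 peaks or 19180 loci, after a filter at an average log2 CPM of -3 that removed none. Log2 CPM has a prior count of 2. The script was tested on simulated data without a trend with strength, so that test does not bear on the choice of scaling. Named peaks were the promoter, the strongest peak and the smallest p of each gene in both main comparisons, and the 5 largest called changes each way with average log2 CPM of at least 1; the JAK1 peak said to be so, the OSMR intron 2, STAT3 exon 15 and nearer upstream SOCS3 peaks, and the second peaks of JAK2 intron 22 and of the last IL31RA exon were added after their values were seen. Members and lists were chosen with earlier results of these data known. Alternatives were library totals, TMM over the weaker 50% of peaks or over 10 kb bins, loess offsets (span 0.3), a filter at 0, 3 kb upstream, a replicate block, DESeq2 1.42.0 and leaving out each library. Totals of 4661678 to 11352032 counts set the precision. Some items withheld for evaluation are not reported here. Pairs of libraries of a group had a chi-square per peak of 1.03 (unstimulated 3 and 5) to 2.84 (DMSO 1 and 5). Sampling noise alone gives about 1, so the closest pairs were only slightly above it.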

Additional observations from a re-analysis of the deposited data

Results flagged for a closer look

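In 105 groups of 6 libraries, 4 held a library that stood far from the other 5, where about 1 group in 20 would by chance. Unstimulated library 6 was high at the strongest IL31RA peak, with a log2 CPM of 5.12 against 4.51 to 4.66, and at the STAT3 promoter, with 6.63 against 6.17 to 6.33. This library also had the largest share of peaks without a count, 11.3%. DMSO library 1 was low at the upstream SOCS3 peak, with 2.40 against 3.24 to 3.58, and at the STAT3 intron 15 peak, with 1.28 against 1.88 to 2.08. Without that library the SOCS3 peak differed after cytokines by -0.57 (edgeR adjusted p = 0.00168) and the STAT3 peak by -0.63 (adjusted p = 0.0113).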

How the results depend on the processing

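Scaling moved the counts of both comparisons with unstimulated libraries. After cytokines, the peaks opened and closed (5 and 20) became 15 and 8 with library totals, where 16.2% and 3.25% of all peaks did. With TMM over the weaker 50% of peaks they became 1 and 54 (2.26% and 25% of all peaks). Loess offsets gave 1 and 3 (2.14% and 1.77%), and DESeq2 gave 3 and 13 (4.54% and 5.55%). The average log2 CPM filter at 0 left 3 opened (8.75% of the peaks kept). Belinostat against unstimulated (14 and 26) gave 25 and 15 with library totals, where 30.4% and 6.31% of all peaks opened and closed. With TMM over the weaker 50% of peaks it gave 2 and 60 (2.77% and 30.5%), and with loess offsets 4 and 4 (4.41% and 4.34%). With DESeq2 9 opened (12.4%), and under the filter at 0 there were 8 opened (12.7% of the peaks kept). Loci lower after cytokines (8) numbered 3, 1 and 1 with library totals, loess and DESeq2, with 1 higher in each. Of all loci 19.3%, 8.24% and 11.7% were lower there, and 18.9%, 14.2% and 19% higher. In belinostat against unstimulated (9) the lower loci numbered 5, 2 and 4, with 1 higher in each. Of all loci 29.5%, 17.9% and 21.9% were lower there, and 25.8%, 20.7% and 27.1% higher. The cause of the shifts with scaling was not tested. The single peak closed by belinostat became 2 with library totals (1.46% of all peaks) or the filter at 0 (3.37% of the peaks kept). It became 0 with 3 kb upstream, which leaves that peak out of the JAK2 locus.

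With 1 library left out, the counts ranged as follows. After cytokines 1 to 8 peaks opened and 14 to 23 closed, and 7 to 8 loci were lower. Of all peaks 5.52% to 10.7% opened and 6.18% to 11.1% closed, and 55.2% to 65.4% of all loci were lower. Between belinostat and DMSO 1 to 4 peaks closed and 0 to 4 loci were lower, where 1.16% to 2.6% of all peaks and 0.527% to 22.6% of all loci were. In belinostat against unstimulated 6 to 16 peaks opened, 21 to 29 closed and 8 to 9 loci were lower. Of all peaks 11.2% to 19.5% opened and 11.6% to 15% closed, and 64.4% to 68.5% of all loci were lower.

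Called falls and values near 0 alike changed sign under some settings. After cytokines with loess offsets, the strongest IL31RA peak went to 0.31 (0.15 with library totals), and the promoters of IL6ST to 0.096, JAK1 0.050, JAK2 0.056, OSMR 0.018, PIM1 0.048, SOCS3 0.031 and STAT3 0.12. The loci went to 0.061 for IL6ST (0.015 with DESeq2), 0.020 for JAK1, 0.014 for JAK2, 0.039 for OSMR and 0.27 for IL31RA, the last also to 0.20 with library totals, 0.040 with 10 kb bins and 0.23 with DESeq2. For belinostat against DMSO, loess turned the promoters of IL6ST (0.019), JAK1 (0.081), LIFR (0.0029), OSMR (0.068) and SOCS3 (0.0052), the distal JAK1 start (0.015) and the loci of IL6ST (0.00028), OSMR (0.039, and 0.00067 with DESeq2) and STAT3 (0.0026). TMM over weaker peaks turned the IL31RA promoter (-0.11) and the LIFR locus (-0.087). For belinostat against unstimulated, loess turned the loci of IL31RA (0.21, 0.12 with library totals and 0.16 with DESeq2), IL6ST (0.061), JAK1 (0.010), LIFR (0.026) and OSMR (0.078). Leaving out 1 library gave the IL31RA locus after cytokines values of -0.049 to 0.040, its strongest peak -0.12 to 0.035, its promoter between belinostat and DMSO -0.10 to 0.12, and the LIFR locus there -0.062 to 0.064.

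The replicate numbers shared by the groups did not pair the libraries: same-numbered libraries correlated at -0.199 to 0.106 (median 0.028), 2 of 18 pairs exceeded 0.1, and 2 of 18 libraries correlated best with their own number. With the replicate block 5 peaks opened and 21 closed after cytokines, where 9.66% and 10.3% of all peaks did. With belinostat 2 closed, where 1.86% of all peaks did, the second being the strongest IL31RA peak (edgeR adjusted p = 0.0258). The IL31RA promoter passed after cytokines (adjusted p = 0.0493), and the LIFR locus between belinostat and DMSO was at -0.0034.

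The depth limits weak peaks, and a p that misses the threshold does not show equal accessibility. In all, 950 of 1022 values of peaks and 627 of 702 values of loci kept direction and side of the threshold. Most of these values came from leaving out a single library with the scaling unchanged. A value that missed the threshold throughout and kept its sign also counts as kept. These pooled counts therefore cannot show how far the calls depend on scaling, for which the counts under each scaling at the start of this section are the measure.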
